A study of Arabidopsis thaliana with 18 samples.

Results

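The 150 genes described here are genes of Arabidopsis thaliana whose transcripts were found in roots and hardly in shoots, and which were lowest in roots exposed to lanthanum (La). They were chosen from measured values. A gene qualified when its mean was under 1 in control shoots and at least 50 in control roots and when each of its 3 La root values lay below each of its 3 control root values. After 16 named loci had been left out, 473 of the 755 root-only genes qualified, and the 150 with the lowest log2 ratio of the La mean to the control mean (0.5 added to both) were taken, out of 28991 genes in the root table. Of the 16 loci left out, 11 would have ranked among them. The samples were wild-type Col-0 plants of 6 weeks in hydroponic culture, exposed for 72 h to 5 µM LaCl3, exposed for 72 h to 5 µM YbCl3 (ytterbium), or not exposed. The medium of all groups, the control included, lacked phosphate. Roots and shoots were sequenced apart, with 3 replicates of 3 pooled plants in each of the 6 groups, which gave 18 libraries. The study asks how root and shoot transcripts respond to a light and a heavy rare earth element. Levels are given in normalised reads, that is reads divided by 1 size factor per library. They are not divided by gene length, so they are compared between libraries and not between genes.

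The annotation calls the product of 7 of the 150 genes root hair specific. Root hairs are tubular outgrowths of epidermal cells through which roots take up water and nutrients. A hair grows at its tip, where vesicles deliver wall material. Growth there involves a calcium gradient, reactive oxygen species, ROP GTPases and an actin network, and the growing wall holds extensins and other hydroxyproline-rich proteins that peroxidases can cross-link. Basic helix-loop-helix factors of the RHD6, RSL and LRL families switch on the genes of hair growth, and many of those genes carry a short promoter motif called the root hair element. Low phosphate is known to make Arabidopsis roots form more and longer hairs.

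The root hair element was searched in a short form, TG and CACG with 4 or 5 bases of any kind between them. Both strands were searched in the 300 bases before the annotated start of each gene. No other base was fixed, and whether a match fits a stricter form of the element was not checked. The TAIR10.1 assembly of RefSeq was used, with loci matched by name, because the tables hold no coordinates. The short form was found before 49 of the 149 nuclear members, which is 32.9%. It was found before 13.9% of the 603 other root-only nuclear genes, 10.8% of the genes tested in roots and 10.3% of all nuclear genes in the table. The 6 promoters printed here show the forms it took: 3 matches, a pair of them overlapping, before SHV2 and RHS13, a single match before XTH14 and AT1G30870, and a shared arrangement before the extensin genes EXT6 and AT5G06630. Each is written 5′ to 3′ on the strand of its gene and ends at the base before the annotated start, and the capitals mark the matched letters on either strand.
SHV2, chr5:19974531-19974830, minus strand: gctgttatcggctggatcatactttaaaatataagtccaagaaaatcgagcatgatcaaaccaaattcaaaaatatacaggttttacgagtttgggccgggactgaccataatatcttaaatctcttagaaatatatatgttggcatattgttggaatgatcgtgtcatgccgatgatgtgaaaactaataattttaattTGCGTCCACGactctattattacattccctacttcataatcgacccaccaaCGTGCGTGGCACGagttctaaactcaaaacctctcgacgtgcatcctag
RHS13, chr4:993040-993339, minus strand: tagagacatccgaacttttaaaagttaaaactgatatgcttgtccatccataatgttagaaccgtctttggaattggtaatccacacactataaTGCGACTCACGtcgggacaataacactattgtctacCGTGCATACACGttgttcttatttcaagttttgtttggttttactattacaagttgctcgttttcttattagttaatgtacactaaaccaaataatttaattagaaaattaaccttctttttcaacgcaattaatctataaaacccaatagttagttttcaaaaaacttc
XTH14, chr4:13129991-13130290, plus strand: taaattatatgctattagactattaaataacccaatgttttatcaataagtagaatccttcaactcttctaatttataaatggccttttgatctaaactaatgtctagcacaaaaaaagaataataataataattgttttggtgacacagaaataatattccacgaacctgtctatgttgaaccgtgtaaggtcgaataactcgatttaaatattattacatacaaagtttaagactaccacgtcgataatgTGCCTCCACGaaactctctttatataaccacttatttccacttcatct
AT1G30870, chr1:10991178-10991477, plus strand: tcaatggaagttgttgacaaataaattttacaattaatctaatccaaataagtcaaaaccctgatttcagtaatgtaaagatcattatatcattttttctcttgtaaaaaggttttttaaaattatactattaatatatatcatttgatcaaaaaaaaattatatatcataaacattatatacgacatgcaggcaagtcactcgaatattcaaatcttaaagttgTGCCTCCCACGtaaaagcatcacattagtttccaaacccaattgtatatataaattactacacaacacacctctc
EXT6, chr2:10622096-10622395, plus strand: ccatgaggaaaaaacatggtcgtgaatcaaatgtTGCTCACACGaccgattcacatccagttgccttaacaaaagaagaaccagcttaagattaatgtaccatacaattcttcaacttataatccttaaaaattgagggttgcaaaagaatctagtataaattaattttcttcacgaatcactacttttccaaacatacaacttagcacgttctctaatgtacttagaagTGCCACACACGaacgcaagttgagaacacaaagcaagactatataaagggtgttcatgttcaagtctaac
AT5G06630, chr5:2037856-2038155, minus strand: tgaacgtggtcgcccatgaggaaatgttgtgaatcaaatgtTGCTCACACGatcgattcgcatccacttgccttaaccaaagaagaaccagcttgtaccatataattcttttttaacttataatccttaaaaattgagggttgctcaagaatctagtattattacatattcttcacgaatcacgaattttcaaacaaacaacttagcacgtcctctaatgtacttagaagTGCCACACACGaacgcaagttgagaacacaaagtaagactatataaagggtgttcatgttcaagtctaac

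SHV2, also called COBL9, encodes an anchored COBRA-like protein of the hair wall and had 3 matches, which end 90, 38 and 36 bases before the start. RHS13, whose product is annotated as root hair specific, also had 3, at 195, 160 and 158 bases. The match of XTH14, a xyloglucan-modifying enzyme, lies 38 bases before the start, and that of the peroxidase gene AT1G30870 lies 64 bases before it. EXT6 and AT5G06630 lie on chromosomes 2 and 5, share 90.4% of 1307 aligned coding bases, and both have a match at 59 bases. Over all members the 67 matches ended a median of 92 bases before the start, and 71.6% lay within 150 bases; over all nuclear genes the median was 120 bases and 59.2% lay within 150. For comparison, the G-box CACGTG was found before 6.04% of members, 4.81% of other root-only genes and 7.68% of all genes tested, and the W-box TTGACC before 12.8%, 18.2% and 14.2% of the same sets. A match to the short form overlapped a G-box before 2 members, or 1.34%, against 1.49% of other root-only genes and 2.14% of all genes tested. These matches are letters in a window and no factor's binding was measured.

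**Figure D1:**
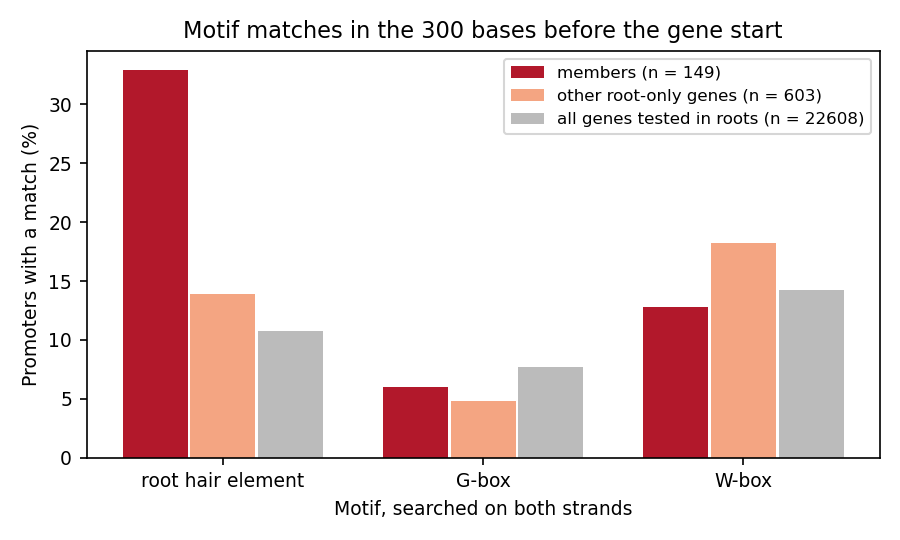
Share of promoters (percent, vertical axis) with at least 1 match to each motif on either strand, for the 149 nuclear members, the 603 other root-only genes and the 22608 nuclear genes tested in roots. The root hair element, in the short form searched, was found before 32.9% of members, 13.9% of other root-only genes and 10.8% of all genes tested. The G-box and W-box shares of the members were not the highest of the 3 sets.

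Root libraries held 12.8 to 16.22 M reads, and 2 libraries stood apart in these genes. Relative to the mean of the controls on the scale log2(value + 0.5), the median member lay at -3.33, -5.60 and -3.75 in La 1, La 2 and La 3. It lay at -1.38 and -1.89 in Yb 1 and Yb 2 but at 0.08 in Yb 3, against 0.33, -0.11 and -0.19 in the controls. The median of all genes tested stayed between 0.00 and 0.01 in every library. La 2, the library with the most reads, was the lowest La library in 128 of the 150 members, or 85.3%, against 44.1% of the other root-only genes and 33.1% of all genes tested. Yb 3 was the highest Yb library in 143 members, or 95.3%, against 72.1% of the other root-only genes and 36.6% of all genes tested. The members together took 0.044%, 0.011% and 0.048% of the reads in the La libraries, 0.17%, 0.119% and 0.486% in the Yb libraries and 0.494%, 0.408% and 0.336% in the controls. In La 2, 23 members had no read at all, against 4 in La 1 and 3 in La 3; in the controls none was at 0. Nothing in the labels sets Yb 3 apart from its replicates. The members' median differences and adjusted limma counts that compare Yb with another root group are given with and without it. Other Yb counts and tests of single genes include Yb 3 unless stated, as do means over the Yb libraries. It is not said whether the replicates of a group were grown apart, so p-values measure only the spread between these samples.

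**Figure D2:**
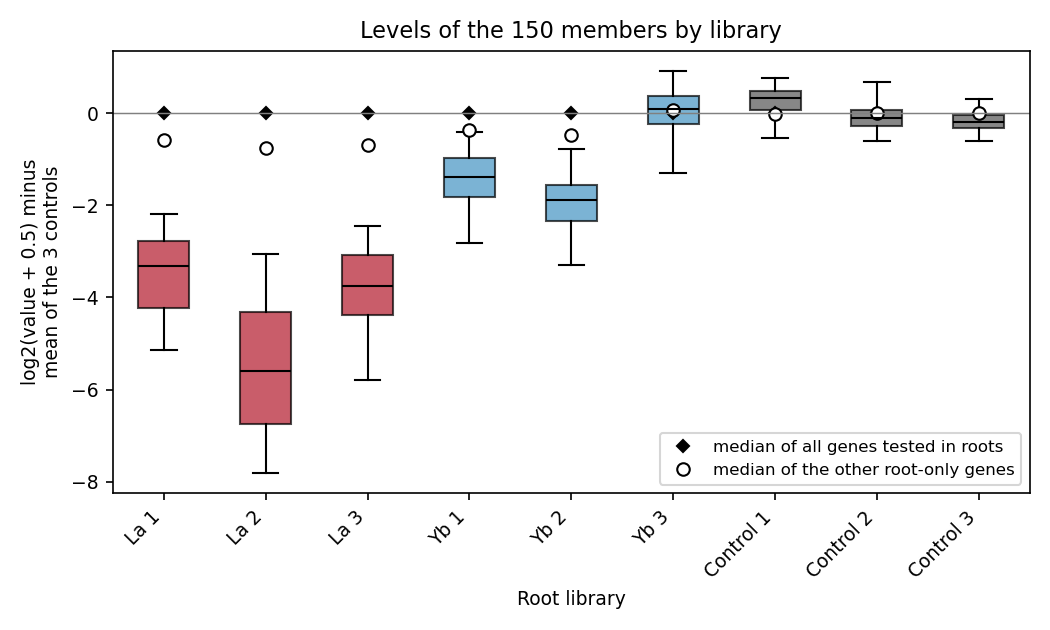
Level of the 150 members in each root library as log2(value + 0.5) minus the mean of the 3 controls (vertical axis). Boxes span the quartiles with the median as a line, whiskers reach the 5th and 95th percentiles, diamonds mark the median of all genes tested and circles the median of the other root-only genes; the medians of La 2 (-5.60) and Yb 3 (0.08) stand apart from those of their replicates.

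**Figure D3:**
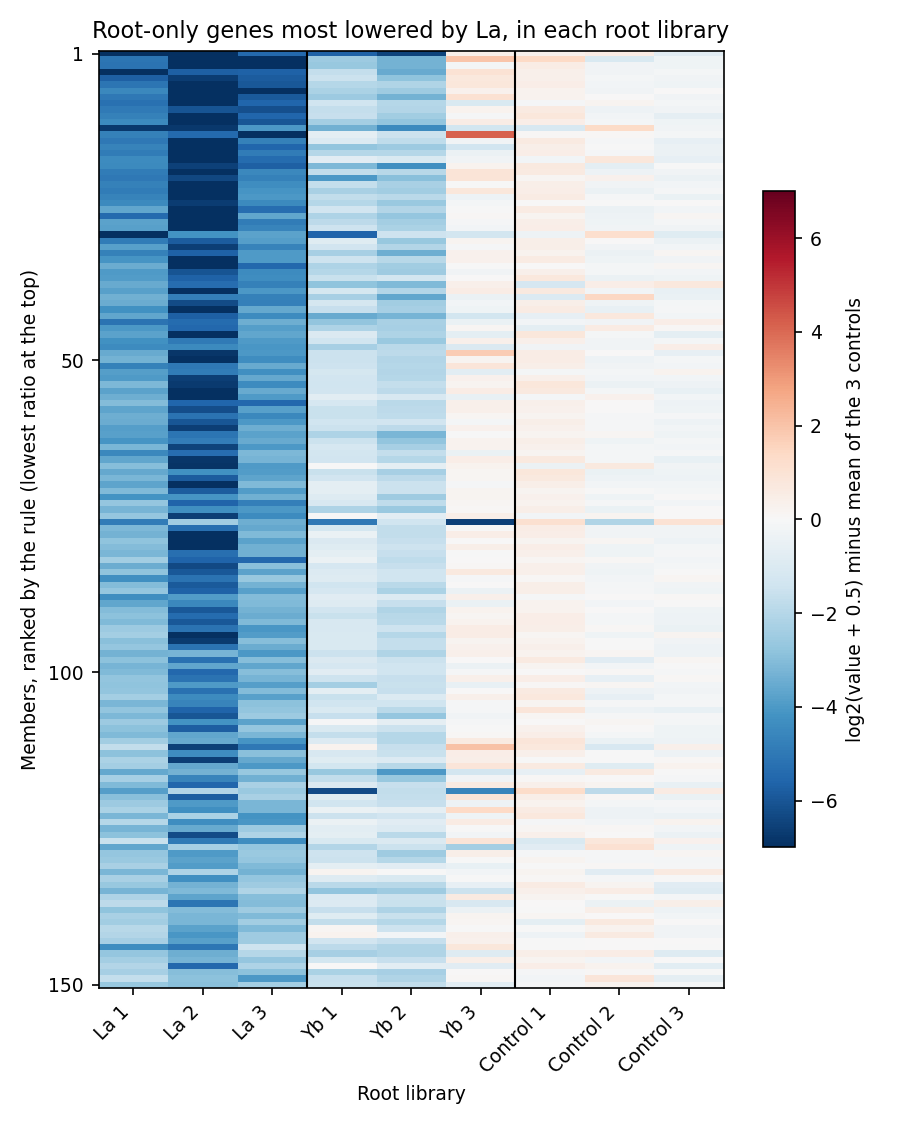
Each row is 1 of the 150 members, ranked from the lowest ratio at the top, and each column is a root library; colour gives log2(value + 0.5) minus the mean of the 3 controls, capped at both ends of the scale. La columns are blue, in most rows darker than Yb 1 and Yb 2, and mostly darkest in La 2. Yb 1 and Yb 2 are mostly pale blue. The Yb 3 column lies below every control in 31 rows, within their range in 80 and above it in 39, the darkest red being AT4G19750.

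In the contrast that chose them, La against control, the fitted log2 differences of the 150 genes ran from -8.26 to -2.65 with a median of -4.26, beside a median of 0.00 over all genes tested. These values describe the choice and carry no test. In the fit over all genes, 147 of the 150 passed the threshold as lower with La, beside 9.51% of genes tested. That count is fixed by the choice of genes and nothing is read from it; the 3 that did not pass are AT1G05650, AT2G07687 and ATCG01110. At the edge of the choice, the last genes taken were AT5G42785, EXT12, AT1G33900, AT5G26130 and AGP30, with ratios of -2.72 to -2.64. The first not taken were PIP5K3, MYB19, CYP93D1, AT3G28550 and AT5G60530, with ratios of -2.63 to -2.57. PIP5K3, a lipid kinase of the growing hair tip, thus falls just outside.

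A few members encode transcription regulators. LRL3, a basic helix-loop-helix factor of hair development, had 41.1, 5.24 and 33.6 normalised reads in the La libraries, 130, 92.3 and 351 in the Yb libraries and 455, 305 and 281 in the controls. Its La values lay far below all others, Yb 1 and Yb 2 lay between the La values and the controls, and Yb 3 lay within the controls. RAP2.11, an ethylene-response factor known from the response to low potassium, had 7.38, 4.37 and 11.5 normalised reads with La, 48.6, 19.9 and 160 with Yb and 180, 113 and 125 in the controls, with La 2 again lowest and Yb 3 within the controls. MYB40 averaged 14.0 ± 10.8 with La, 101 ± 73.0 with Yb and 153 ± 75.0 in the controls (SD, n = 3 each). BNQ3, a small helix-loop-helix protein without a DNA-binding region, averaged 17.7 ± 12.9 with La, 70.9 ± 58.7 with Yb and 162 ± 8.94 in the controls.

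Signalling genes included 12 kinases, 8% of the members, which is near their share of root-only genes (8.34%) and of all genes tested (5.99%). They include 5 leucine-rich repeat receptor kinases and the calcium-dependent kinases CPK19 and CPK25. Among the kinases AT4G20450, a leucine-rich repeat kinase, had the lowest La-minus-control difference, with 6.33, 0 and 1.92 normalised reads with La, 28.6, 21.8 and 219 with Yb and 206, 138 and 121 in the controls. CPK25 had 5.27, 2.62 and 7.68 normalised reads with La, 37.2, 22.8 and 50.2 with Yb and 82.1, 62.7 and 67.8 in the controls. Here Yb 3 also lay below every control, so the 3 groups did not overlap. ROPGEF11, an activator of the ROP GTPases that mark the site of tip growth, averaged 13.2 ± 6.55 with La, 58.6 ± 30.1 with Yb and 118 ± 17.0 in the controls. MLO15, a membrane protein of the MLO family, averaged 17.8 ± 14.0 with La, 146 ± 67.1 with Yb and 304 ± 41.0 in the controls. ADF11, an actin-depolymerising factor, averaged 61.0 ± 36.6, 487 ± 314 and 864 ± 275 in La, Yb and control roots.

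Genes of signalling peptides and cysteine-rich proteins were a further group of 10, 6.67% of members against 2.25% of root-only genes and 0.427% of all genes tested. They comprise 4 defensin-like proteins, 5 secreted proteins of the CAP family and the signalling peptide CLE5. AT5G33355, a defensin-like gene at chr5:12599250-12599944, had the lowest ratio of all, with 0, 0 and 8.64 normalised reads with La, 7.62, 3.97 and 521 with Yb and 495, 576 and 230.2 in the controls. Yb 1 and Yb 2 were near the La values in this gene and Yb 3 was near the highest control. Its coding sequence matches that of AT3G59930, which is no member, over 243 bases at 99.6%, so the counting could have divided reads between the pair and the value is uncertain. AT4G22217, another defensin-like gene, had 2.11, 0 and 0 normalised reads with La, 14.3, 8.93 and 84.0 with Yb and 131, 78.7 and 76.1 in the controls. The CAP gene with the most reads in controls, AT5G57625, averaged 41.9 ± 30.4 with La, 501 ± 423 with Yb and 820.4 ± 185 in the controls. CLE5 averaged 37.2 ± 33.2, 113 ± 23.4 and 266 ± 70.6 in La, Yb and control roots.

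Hydroxyproline-rich wall proteins, the structural proteins that stiffen the wall, made up 18 of the members, 12% of them, against 3.44% of all root-only genes and 0.986% of all genes tested. They comprise 9 extensin-like proteins, 4 proteins of the Ole e 1 family, the arabinogalactan proteins AGP22 and AGP30 and 3 others. EXT13 had 15.8, 0 and 19.2 normalised reads with La, 269.7, 151 and 449 with Yb and 815, 499 and 358 in the controls. EXT10 had 107, 11.4 and 136 normalised reads with La, 509, 323 and 1833 with Yb and 2104, 1189 and 900.3 in the controls. AT3G54580, the extensin gene with the most reads in controls, had 1136, 205 and 2060 with La, 4827, 3138 and 15281 with Yb and 12288, 10974 and 6900 in the controls. In these 3 genes La 2 was lowest, and Yb 3 alone of the Yb libraries reached the controls. MOP10, also called PRPL1, a proline-rich protein of root hairs, averaged 40.3 ± 31.2 with La, 319 ± 207 with Yb and 532 ± 124 in the controls. AGP30 differed from this pattern, with 264, 219 and 324 normalised reads with La, 563, 515 and 1021 with Yb and 1552, 1953 and 1543 in the controls, so that the 3 groups did not overlap. Repeats make the extensins alike, and 4 of them have a near copy among the members: EXT6 with AT5G06630, and AT4G08400 with AT4G08410, so reads could have been divided between such genes and their single values are uncertain.

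By keywords in the annotated product, wall enzymes and related proteins were 15 members, 10% of them. The same class held 5.03% of root-only genes and 1.80% of all genes tested. SHV2 had 29.5, 2.62 and 16.3 normalised reads with La, 124, 54.6 and 333 with Yb and 344, 254 and 240.5 in the controls. XTH14, which cuts and rejoins xyloglucan, had 181, 24.5 and 182 normalised reads with La, 713, 415 and 1871 with Yb and 2175, 1400.3 and 1226 in the controls. Both genes, whose promoters are printed above, were lowest in La 2, intermediate in Yb 1 and Yb 2, and as high in Yb 3 as in the controls. XTH12 of the same enzyme family averaged 4.35 ± 3.77 with La, 40.3 ± 18.6 with Yb and 99.6 ± 52.9 in the controls, and XTH26 averaged 12.6 ± 10.3, 141 ± 96.6 and 179.7 ± 53.8 in the same groups. GH9C1, an endoglucanase, averaged 55.7 ± 40.2 with La, 331 ± 184 with Yb and 562 ± 116 in the controls. The 7 members whose product is annotated as root hair specific include RHS8, RHS12, RHS14 and RHS18 besides RHS13. RHS13 had 79.1, 11.4 and 107 normalised reads with La, 401, 314 and 1399 with Yb and 1405, 1054 and 984 in the controls, again with La 2 lowest and Yb 3 within the controls.

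The 4 members whose annotated product names a peroxidase, an enzyme that uses hydrogen peroxide in the wall, were all lowest in La 2. They are 2.67% of members, against 1.85% of root-only genes and 0.396% of all genes tested. AT4G26010 had 245, 32.3 and 201 normalised reads with La, 778, 468 and 2305 with Yb and 2354, 2012 and 1635 in the controls. AT1G30870 has a match to the short form of the root hair element 64 bases before its start. It had 101, 6.99 and 97.9 normalised reads with La, 365, 249 and 879 with Yb and 932, 767 and 659.8 in the controls. AT1G34510 averaged 3.58 ± 4.50, 53.5 ± 56.7 and 113 ± 21.3 in La, Yb and control roots. AT2G39040 averaged 13.8 ± 11.9, 156 ± 32.2 and 268 ± 53.8 in the same order of groups.

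Few members encode transport proteins. ACA9, a calcium-pumping ATPase best known from pollen tubes, which also grow at the tip, had 38.0, 5.24 and 21.1 normalised reads with La, 201, 114 and 376 with Yb and 367, 321 and 293 in the controls. AT3G45700, a major facilitator protein, averaged 5.77 ± 4.99 with La, 46.4 ± 40.7 with Yb and 134 ± 39.9 in the controls. G3Pp2, a glycerol-3-phosphate permease also annotated as root hair specific, averaged 10.6 ± 14.1, 55.0 ± 63.3 and 73.3 ± 1.32 in La, Yb and control roots. A member of a different cell layer is CASP4, a scaffold protein of the Casparian strip that seals the endodermis. CASP4 had 58.0, 10.5 and 40.3 normalised reads with La, 141, 126 and 506 with Yb and 549, 265 and 413 in the controls, with La 2 lowest and Yb 3 within the controls.

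**Figure D4:**
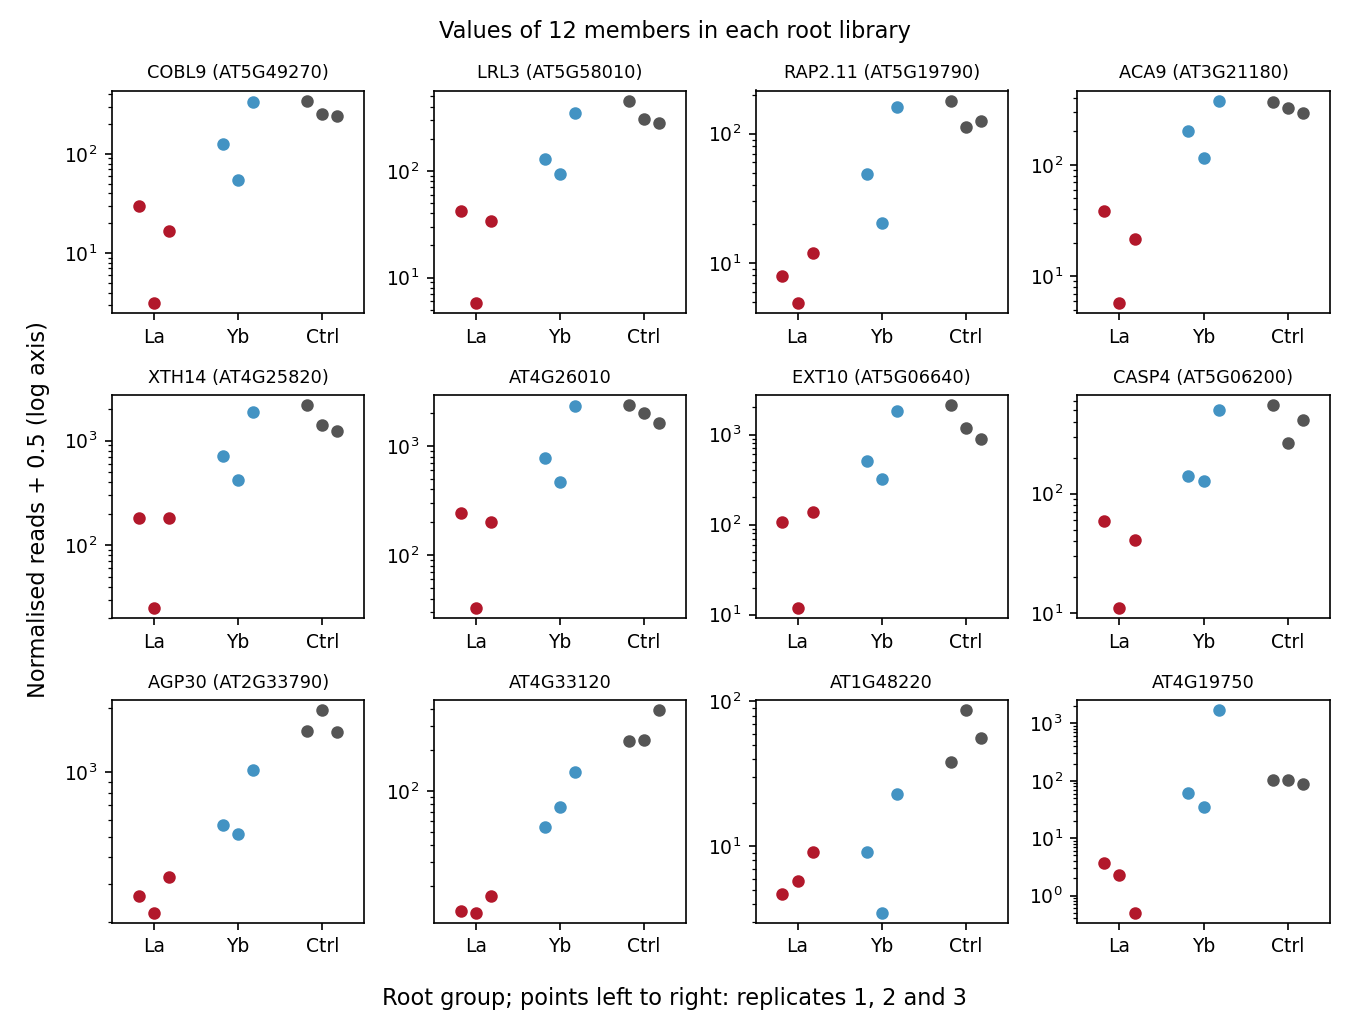
Normalised reads plus 0.5 (vertical axis, logarithmic) of 12 members in each root library; points from left to right within a group are replicates 1, 2 and 3. In SHV2 (drawn as COBL9), LRL3, XTH14 and EXT10 La 2 is lowest and Yb 3 lies with the controls, while in AGP30 and AT4G33120 all Yb points lie between La and control and in AT1G48220 Yb 2 lies below La 1.

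Metabolic enzymes numbered 18, 12% of the members against 16.8% of root-only genes. GSTU14, a glutathione transferase, had 11.6, 5.24 and 4.80 normalised reads with La, 118, 91.3 and 454 with Yb and 591, 295 and 316 in the controls. AT4G33120, a methyltransferase, had 12.7, 12.2 and 16.3 normalised reads with La, 54.3, 75.5 and 137 with Yb and 233, 238 and 393 in the controls, so that the groups did not overlap and stood in the order La, Yb, control. AT1G15540, a 2-oxoglutarate-dependent dioxygenase, averaged 92.1 ± 42.6 with La, 136 ± 65.2 with Yb and 661 ± 292 in the controls, with every Yb value below every control. CYP76G1 averaged 63.0 ± 30.2 with La, 123 ± 71.9 with Yb and 421 ± 189.9 in the controls. The annotation gave no role by the keywords used to 66 members, of which 13 are called uncharacterized.

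Not all members followed the same libraries. Yb 3 exceeded every control in 39 members, or 26%, against 32.9% of the other root-only genes and 28.2% of all genes tested. The share of members was thus above neither background. In AT4G19750, a chitinase-like glycosyl hydrolase, Yb 3 held 1704 normalised reads, against 60.0 and 33.8 in Yb 1 and Yb 2. Its La values were 3.16, 1.75 and 0 and its control values 103, 104 and 88.4. This gene shares 93.6% of 964 coding bases with AT4G19760, so its value is uncertain. AT4G19800 of the same family had 356 in Yb 3, 15.3 and 8.93 in Yb 1 and Yb 2, 2.11, 0 and 0 with La and 238, 43.8 and 73.0 in the controls. AT1G76640, a calcium-binding protein, had 5.27, 11.4 and 4.80 normalised reads with La, 60.0, 51.6 and 46.1 with Yb and 58.8, 29.9 and 79.1 in the controls; its Yb values lay inside the range of the controls. Members AT2G07687, annotated as a subunit of the mitochondrial cytochrome c oxidase, and ATCG01110, encoded in the chloroplast, followed the organelle reads. AT2G07687 had 1.05, 7.86 and 3.84 with La, 0.95, 16.9 and 0 with Yb and 98.7, 9.96 and 91.5 in the controls. ATCG01110 had 2.11, 8.74 and 5.76 with La, 0, 10.9 and 1.02 with Yb and 92.1, 9.96 and 55.5 in the controls. Reads assigned to mitochondrial genes were 0.0650% and 0.0549% of the library in controls 1 and 3, and between 0.0032% and 0.0118% in the other root libraries. Those of chloroplast genes were 0.0498% and 0.0445% in controls 1 and 3, and between 0.0008% and 0.0073% in the other root libraries. The part of organelle reads in these values was not tested. Organelle genes did not match by locus, so near copies of AT2G07687 among them could not be found and its value is uncertain.

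In Yb against control the members' log2 differences had a median of -1.06 (range -4.29 to 0.63), beside 0.00 over all genes tested. The controls in this comparison are those that the choice of members used, so it is not independent of that choice. Library by library, Yb 1 and Yb 2 lay below every control in 139 of the 150 members, against 19.3% of all genes tested and 51.2% of the 605 other root-only genes. Yb 3 lay below every control in 31 members, within their range in 80 and above it in 39, against 26.8%, 45% and 28.2% of all genes tested. By limma with Benjamini-Hochberg adjustment 1 member fell with Yb, against a background of 0.37% of genes tested: AT4G33120, by 1.75 ± 0.33 on the log2 scale (SE, adjusted p = 0.0395), lower in 3 of 3 Yb libraries. Its near copy AT4G33110 shares 94.9% of 1068 coding bases, and no member passed when Yb 1, Yb 2 or any control was left out. At an unadjusted p under 0.05, 26 members were lower, against 7.75% of all genes tested, and in 28, or 18.7%, every Yb value lay below every control, against 22.8% of the other root-only genes and 9.62% of all genes tested. Without Yb 3 the median difference was -1.67 and 34 members passed (background 2.85%). Among these 34 were AGP30, which differed by -1.63 ± 0.16 (adjusted p = 0.00165), AGP22 at -2.37 ± 0.37 (adjusted p = 0.0223), RAP2.11 at -2.11 ± 0.46 (adjusted p = 0.0314) and ROPGEF11 at -1.50 ± 0.38 (adjusted p = 0.0487), all by limma without Yb 3. Weighting the libraries or using DESeq2 gave 13 members each (background 2.52% and 1.88%), and edgeR gave 2 (background 0.361%).

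In La against Yb the median log2 difference was -3.19 (range -6.57 to 1.37), beside 0.01 over all genes tested. In 136 members every La value lay below every Yb value, against 34.9% of the other root-only genes and 14.8% of all genes tested. With Yb 3 left aside, every La value lay below Yb 1 and Yb 2 in 137 members, against 35.9% and 18% of the same sets. This comparison shares the La libraries with the choice of members. By limma, 75 members were lower with La than with Yb, against a background of 3.81% of genes tested, and none was higher (2.64% of genes tested were). By the keyword classes they comprise 10 of the 18 metabolic enzymes, 5 of 12 kinases, 4 of 18 hydroxyproline-rich proteins and 4 of 15 wall enzymes. They also include 3 of 10 peptides and cysteine-rich proteins, 1 of 4 peroxidases, both genes of the transport class, MYB40 and AT4G22666 of the lipid-transfer class. The other 44 are among the 66 genes without a role. The count depended on single libraries: it was 40 when Yb 3 was left out (background 1.42%), 24 when Yb 1 was, 33 when La 2 was and 20 when La 3 was. It was 17 in a fit of the 6 La and Yb libraries alone, and DESeq2 called 136 (background 6.61%). Without Yb 3 the median difference was -2.67. Of the genes named by rule, those that passed whichever library was left out were AT1G19900, AT4G33120, QWRF7, AT5G17390, AT5G58784 and AT1G76640. AT1G19900, a glyoxal oxidase-related protein, fell by 4.52 ± 0.48 relative to Yb (adjusted p = 0.00595), and AT1G76640 by 2.89 ± 0.41 (adjusted p = 0.00954), each lower in 3 of 3 La libraries.

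In shoots the members were near absent in all groups, as the rule requires of the control shoots. Their reads summed to 18, 26 and 26 in the La libraries, 53, 34 and 46 in the Yb libraries and 15, 12 and 17 in the controls, and the highest single value was 5.70 normalised reads. Of the 150, 15 passed the filter on low values in shoots. By limma none of these passed with La or with Yb, where 0.0637% and 0.041% of genes tested were lower and 0.0228% and 0 were higher. At an unadjusted p under 0.05 there were 0 with La and 1 with Yb, where 8.28% and 8.44% of genes tested passed.

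Markers of the root's cell types were read in the same libraries, and all of the marker genes were detected. Of 15 hair cell markers, 12 fell with La (background 9.51%), with a list median of -4.21; 9 of the 15 are among the loci left out of the members and SHV2 is itself a member. Their summed level was 1725 to 2496 normalised reads with La, 3653 to 10710 with Yb and 8111 to 11360 in the controls. By library the list median was -3.06, -5.79 and -2.91 in La and -1.18, -1.74 and 0.16 in Yb. Most of the list is left-out loci or a member, so its likeness to the members is no separate result. Of the other hair markers, RHD6 and RSL2 differed from the controls by -1.80 and -3.83 with La. RSL4, RHD2 and CSLD3 differed by -0.82, -0.75 and -0.49. RSL2, a factor of hair growth, fell by 3.83 ± 0.75 (adjusted p = 0.0127, limma), and COW1, a phosphatidylinositol transfer protein of the hair tip, by 4.35 ± 0.72 (adjusted p = 0.00698), each lower in 3 of 3 La libraries. Not every hair gene did so: RHD2, the NADPH oxidase of the hair tip, was at 659 ± 64.6 with La, 911 ± 322 with Yb and 1112 ± 146 in the controls and did not pass the test (adjusted p = 0.0575). CSLD3, a hair cellulose synthase-like protein, passed with a fall of 0.49 ± 0.10 (adjusted p = 0.00716). Of 9 endodermis and Casparian strip markers 6 fell with La (median -2.00, summed level 1902 to 3887 with La, 4156 to 8398 with Yb and 5786 to 8975 in the controls), CASP4 among them. Of the 4 non-hair epidermis markers GL2 and WER fell, by 0.77 ± 0.22 (adjusted p = 0.0356) and 1.09 ± 0.14 (adjusted p = 0.00136). No marker of cortex, xylem or dividing cells passed with La in either direction among 4, 8 and 9 genes, with medians of -0.11, -0.39 and 0.04. In stele 2 of 6 rose and 1 fell, in phloem 1 of 4 rose, in root cap 1 of 5 fell, in lateral root founder cells 1 of 4 rose and in developmental cell death 2 of 7 rose. The 6 green tissue markers summed to 327 to 392 with La, 149 to 483 with Yb and 196 to 343 in the controls. No hair, endodermis or non-hair marker passed with Yb against control, with or without Yb 3; without it the hair and endodermis medians were -1.49 and -0.96, against -0.90 and -0.62 with it. In whole roots, fewer cells of a type and less RNA per cell cannot be told apart, and the part of either in the members' levels was not tested.

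**Figure D5:**
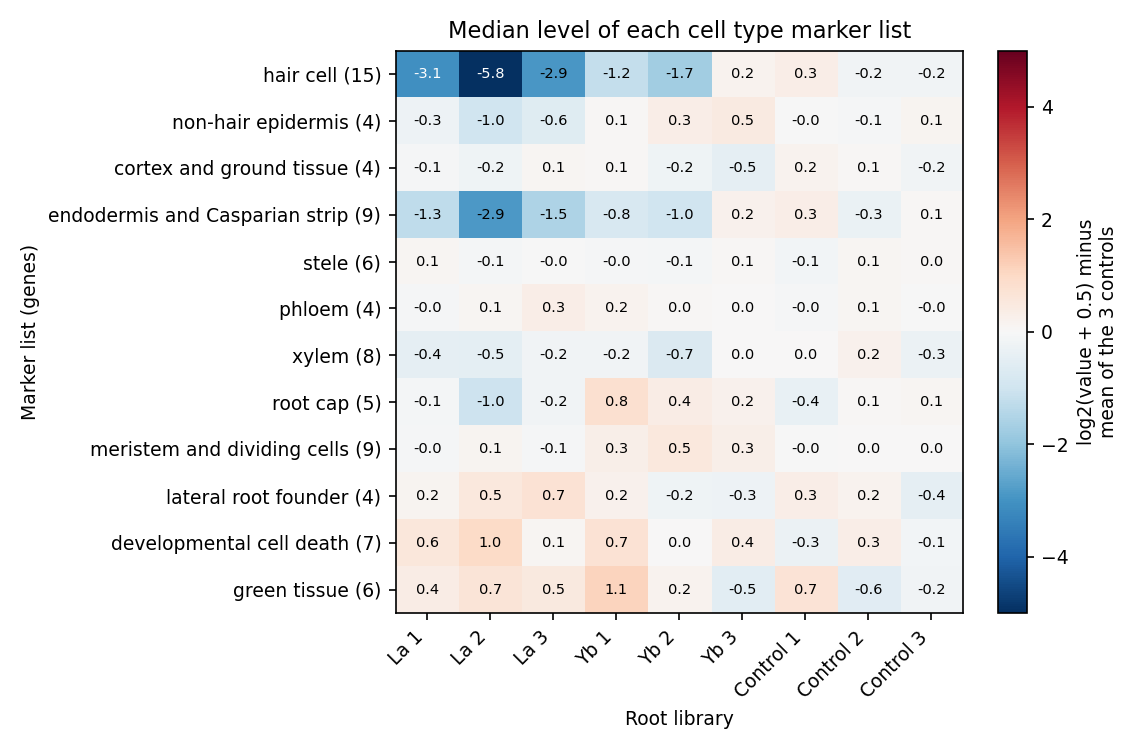
Median of each marker list in each root library (columns) as log2(value + 0.5) minus the mean of the 3 controls; the number of genes in each list is in brackets. The hair cell list, with -5.79 in La 2 and 0.16 in Yb 3, and the endodermis list, with -2.86 and 0.21 in the same libraries, follow the members, whereas stele, phloem and cortex medians stay near 0. Most hair cell markers are loci left out of the members by the rule, so the likeness of that list is no separate result.

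Among 16 regulators of root hair fate and growth, of hair and non-hair cells alike, 9 fell with La (median -1.07, background 9.51%). They were RHD6, RSL2, RSL3, LRL2, LRL3, GL2, WER, EGL3 and GL3. LRL3 is a member chosen for its low La values. RHD6 and RSL2 are also in the hair cell list above, and GL2 and WER in the non-hair epidermis list. None of the 16 passed with Yb against control, with or without Yb 3 (medians -0.26 and -0.32). In La against Yb 5 were lower (background 3.81%), namely RHD6, LRL2, GL2, WER and EGL3. Without Yb 3 LRL2 and WER remained of these. RHD6, which starts hair formation, averaged 60.7 ± 23.3 with La, 209 ± 92.3 with Yb and 214 ± 80.5 in the controls (adjusted p = 0.0182 for La against control and 0.0432 for La against Yb, or 0.11 without Yb 3, limma). RSL4, which sets hair length, averaged 17.0 ± 10.3 with La, 22.0 ± 3.12 with Yb and 31.8 ± 22.6 in the controls and did not pass (adjusted p = 0.302 for La against control). LRL1 and TTG1 differed from the controls by 0.00 ± 0.10 and -0.02 ± 0.09 with La. Of 9 genes of the root triterpene clusters, PEN1 alone passed with La, falling by 0.71 ± 0.11 (adjusted p = 0.00262), and it also fell with Yb, by 0.68 ± 0.11 (adjusted p = 0.0245, or 0.00766 without Yb 3). Genes of suberin synthesis, the lipid polymer laid down after the Casparian strip, went the other way: 8 of 10 rose with La (median 0.99), against a background of 9.41% of genes tested, including MYB41 by 1.51 ± 0.28 (adjusted p = 0.00546) and CYP86A1 by 1.12 ± 0.17 (adjusted p = 0.00297), and 1 of 10, FAR4, rose with Yb by 1.17 ± 0.20 (adjusted p = 0.0381, or 0.0453 without Yb 3), where 0.871% of genes tested rose.

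The members lay on all 5 chromosomes in shares of 12.1% to 26.8%, near the shares of all genes in the table (15.2% to 26.3%). In 8 places a pair of members were next to each other, which involves 16 of the 149 nuclear members, or 10.7%. In the larger set of 603 other root-only nuclear genes, 21.4% lay next to another of that set. Neighbouring pairs include the extensin genes AT3G54580 and HRGP1 at chr3:20200573-20208783, AT5G06630 and EXT10, RAP2.11 and AT5G19800, and the pectin lyase-like genes AT1G05650 and AT1G05660. The median coding length was 352 codons, against 388 in other root-only genes and 377 in all genes tested, and 6.71% of members were under 100 codons, against 2.66% and 4.60%. A stretch of at least 200 coding bases with 90% identity or more to another gene was found in 20 members, which are therefore less certain one by one.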

How the data were processed

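The members, gene lists and tests were chosen with earlier results of these data known, so none of them is independent support. Per the submitters' processing notes, the build was TAIR10 and the tools were HTSeq 0.6.1p1, TopHat2 2.1.1 and Trimmomatic 0.36.1; what each did, and how strand was set in counting, is not given in the sources used here. Stranded, paired-end libraries were made from poly(A) RNA, per the labels. The deposited signal is reads per gene divided by 1 size factor per library, although the tables are named for a length-normalised unit: 100% of values were whole multiples of 1 step within 0.001, so whole reads were recovered. The depth was 12.8 to 16.22 M reads in root libraries and 12.44 to 16.35 M in those of shoots. Each tissue was normalised by the authors apart from the other.

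Genes with a value of at least 1 in at least 3 of the 9 libraries of a tissue (22729 in roots) were fitted as log2(value + 0.5) with limma 3.58.1 in R 4.3.3, with group as the only factor, trend and robust moderation, and two-sided p-values adjusted by Benjamini-Hochberg over all genes tested (threshold 0.05). Differences are log2 with their SE, means have their SD, and differences on this scale understate changes of low genes. The fit was tested on simulated data. Recovered reads were also fitted with edgeR 4.0.16 and DESeq2 1.42.0. Other alternatives were the pseudocount, filters, a replicate block, quantile normalization, library weights, a fit of the 6 compared libraries and leaving out each library.

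The named genes were the 10 lowest ratios, in each role class the 2 highest control means, the 10 smallest adjusted p and 5 highest differences in Yb against control, and the 5 genes on each side of the limit; other members were named for their annotated role after their values were seen. Roles came from keywords in the annotated product. A product without a keyword, such as that of RHS12, RHS14 or RHS18, was given no role, whatever the protein does. Names, coordinates and promoters came from RefSeq's TAIR10.1, where 28781 of 28991 genes and 149 of 150 members matched by locus; near copies were found with blastn 2.17.0. A planned share of cysteine in the proteins was not computed here.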

Additional observations from a re-analysis of the deposited data

How the results depend on the processing

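The count of members lower with Yb than in controls, 1 as reported, depended most on the setting. It was 2 with the replicate block, with quantile normalization and with edgeR, 13 with library weights and with DESeq2, and 0 to 34 when 1 library was left out, the 34 being without Yb 3 and the 0 without Yb 1, Yb 2, control 1, control 2 or control 3. The count lower with La than with Yb, 75 as reported, was 17 in a fit of the 6 compared libraries, 136 with DESeq2, and 20 to 73 with 1 library left out, the lowest when La 3 was left out, followed by Yb 1 (24), La 2 (33) and Yb 3 (40); under the other settings it was within 1.5 times the reported count. The count in La against control, 147, was 120 to 142 with 1 library left out, and 0 members passed in shoots under each setting run there. Why the fits differ was not tested, except that the 6-library fit and the leave-one-out fits rest on fewer samples. Applying the rule again kept 143 members with a pseudocount of 5, 126 with a shoot limit of 5, 109 with a root limit of 20, 97 with a root limit of 100, and 135 to 145 with 1 library left out.

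Over all genes tested in roots, deviations of replicates with the same number were weakly correlated. The correlation was -0.125 to 0.003 between La and control, -0.121 to -0.009 between Yb and control and 0.027 to 0.182 between La and Yb. Between La and Yb replicates of different numbers it was -0.22 to 0.156. La 2 and Yb 2 were the lowest of their groups in 85.3% and 87.3% of members. The shares were 44.1% and 55.4% of the other root-only genes and 33.1% and 34.6% of all genes tested. The numbers were not taken as pairs in the main fit, and a shared deviation of La 2 and Yb 2 was not tested. The replicate block gave 2 members in Yb against control, 88 in La against Yb and 144 in La against control.

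For the 52 named genes in 3 contrasts, no called value changed sign, 9 of 156 values changed sign where neither fit called them, 161 alternative values lost the call and 98 gained it. Of the named genes called, 35 of 50 in La against control, 6 of 23 in La against Yb and 0 of 1 in Yb against control kept the call whichever library was left out. With 3 libraries a group, and La values of a few reads in many members, single-gene differences are imprecise: their SE ran from 0.26 to 1.93 with a median of 0.75.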
